A study of Mus musculus with 38 samples.

Results

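Gene expression in the adBNST of unstressed mice, the anterodorsal BNST (bed nucleus of the stria terminalis), was described from the 20 control libraries of the study, 10 of females and 10 of males, out of 38 libraries in all. The members were chosen by their label as controls, with no use of a measured value, and genes were then ordered by level and by spread between libraries. All 20 came from wild-type (WT) mice, and the labels give no strain, age or estrous stage, and do not say whether a library is 1 animal or a pool. The other 18 libraries, 9 of each sex, came from mice given chronic variable mild stress, a 6-week schedule of randomised stressors, and were used only to see whether a gene's spread was alike in a separate set of libraries. RNA of microdissected tissue was selected for poly-A tails and made into stranded libraries. Libraries are named here FC1 to FC10 (female controls) and MC1 to MC10 (male controls), after the sample labels.

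The bed nucleus of the stria terminalis is a small forebrain nucleus of the extended amygdala, and its anterodorsal part receives input from the amygdala, cortex and brainstem and projects to hypothalamic and brainstem centres. Most of its neurons release GABA, and many also make a neuropeptide, a short signalling protein cut from a longer precursor and released from dense-core vesicles. Corticotropin-releasing hormone, neuropeptide Y, somatostatin, enkephalin and protein kinase C delta mark some of the best known of these neurons, which are studied for their part in anxiety, feeding and the stress response. The nucleus lies beside the striatum, the septum, the lateral ventricle with its ciliated ependymal lining, and the fibres of the anterior commissure and internal capsule.

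Library totals ran from 9064136 counts in MC3 to 84842828 in MC1, so that 1 count was worth 0.0117 to 0.113 counts-per-million (CPM). The ribosomal RNA precursor Rn45s took 0.121% to 4.81% of counts. On the first principal component of log2(CPM + 1), which held 35.8% of the variance, FC6 (score 56.5) and MC3 (52.7) lay farthest out. MC7 and FC1 came next at their end, and MC5 (-40.1) was the farthest at the other. Earlier work on these data had found FC1, FC6 and MC3 apart, and values without these 3 libraries are given where they bear on a result. Per length, FC6 was the lowest library for 3824 and MC3 for 2456 of the 14317 genes of at least 1 CPM with an exon length. Values per length are scaled to the same total in every library, so high counts of short genes lower all other genes there. The short gene model Mir6236, for one, reached 2417 CPM in FC6. The lowest or highest library of a gene per length can therefore differ from that by CPM, and how far this scaling enters was not tested. The closest pair of libraries in each sex (FC3 with FC4, and MC4 with MC5) differed by a chi-square per gene of 8.30 and 20.2, where counting noise alone gives about 1. No pair agreed within counting noise, which does not show that they are separate animals. The second component (27.1%) followed the numbers in the labels, with 1 to 5 on one side and 6 to 10 on the other, except for FC6 and MC6. What a number marks is not given in the labels, and the split was chosen with earlier results of these data known. Of 16310 genes tested in the controls with edgeR's quasi-likelihood test, with sex in the model, 4133 (25.3%) differed between the 2 number sets at an adjusted p under 0.05. Of all genes tested, 2159 (13.2%) were higher and 1974 (12.1%) lower in numbers 1 to 5, and 474 differed by at least 2-fold. Scaled by total counts in place of TMM factors, 1678 were higher and 2377 lower. Where a gene below differed between the sets, that is stated beside its values, and what the sets share was not tested.

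The 20 libraries together detected 21334 of the 25230 genes in the table, and 15192 had a count in every library. A mean of at least 1 CPM was reached by 14503 genes, of at least 10 CPM by 10526 and of at least 100 CPM by 2544. Levels were spread over many genes, with 1261 genes holding 50% of the counts. To compare genes with each other, CPM was divided by the summed exon length of the gene and scaled to the same total in every library, and is called TPM below. Leading the order per length among protein-coding genes was Cpe, carboxypeptidase E, which trims peptide precursors in secretory granules. Cpe had 2696 TPM in MC3, 4577 at the median and 5371 in FC9. Next came Eef1a1, a translation elongation factor (3509 ± 269 TPM, SD, n = 20), Calm2, a calmodulin (3427 ± 638), Apoe, the lipid carrier made largely by astrocytes (3398 ± 745), and Rplp1, a ribosomal stalk protein (3367 ± 1152). The secreted cysteine protease inhibitor Cst3 (3234 ± 600.4), the astrocyte matrix protein Sparcl1 (2954 ± 624), the ferritin heavy chain Fth1 (2817 ± 1187), the selenoprotein Selenow (2690 ± 1314) and the neuronal protein Ncdn (2617 ± 694) were in the same group. Penk, the enkephalin precursor, ranked among these at 2719 ± 941 TPM. A short gene model annotated as the miRNA Mir6236 had the largest value per length (17410 ± 16840 TPM over 123 bases), ran from 52.4 CPM in MC4 to 2417 in FC6, and is no measure of a mature miRNA in these poly-A libraries. By CPM alone, Rn45s (12070 ± 12460 CPM), the long noncoding RNA Meg3 (9507 ± 2457), the myelin gene Mbp (4582 ± 2857) and the noncoding host gene Snhg11 (4337 ± 1271) led.

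Spread between libraries is given as the coefficient of variation, the SD over the mean of CPM after the part due to counting was removed, for genes of at least 1 CPM. Where it stands beside a range in TPM it is still that of CPM, and the TPM values can spread more or less. Its median over these genes was 0.22, with quartiles of 0.161 and 0.301. Spread was larger among low genes, so each gene was also placed by its percentile among the 100 genes above and 100 below it in mean CPM. In the plot of spread against level, 631 genes lay above 0.5 and 620 below 0.1.

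**Figure D1:**
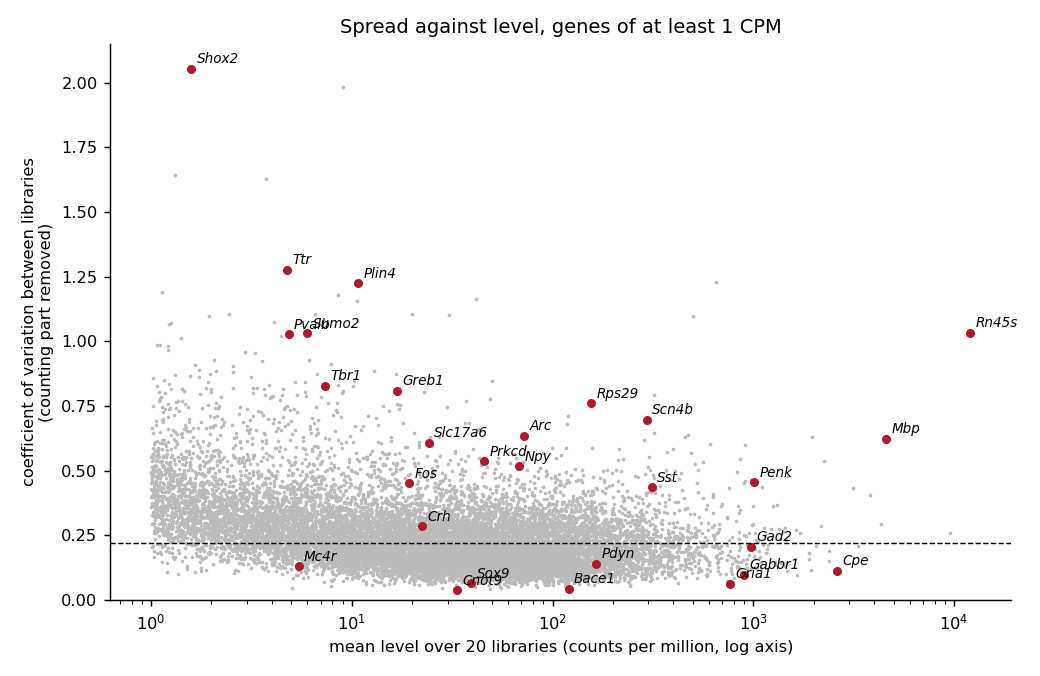
Coefficient of variation between the 20 control libraries (vertical axis) against mean CPM (horizontal log axis), 1 grey point per gene of at least 1 CPM; the dashed line is the median of 0.22 and red points are named genes. Shox2 lies highest at 2.05, while Cnot9, Bace1, Gria1 and Sox9 lie near the floor at their level.

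Peptide precursors were led by those of opioid and interneuron peptides. Of 62 precursor genes on the list, 35 reached 1 CPM, and their summed level ran from 5929 TPM in MC2 to 11610 in FC1. Penk, the precursor of the enkephalins, had 1463 TPM in MC9, 2528 at the median and 4972 in FC1. Sst, the precursor of somatostatin, had 1211 TPM in MC5, 1677 at the median and 3558 in FC1. Penk was above Sst in 16 of 20 libraries, by a mean log2 ratio of 0.50 with an SD of 0.53, so their order was within the spread. Npy, the precursor of neuropeptide Y, had 337 TPM in MC5, 469.9 at the median and 1175 in FC1. Sst was above Npy in 20 of 20 libraries, by 1.87 ± 0.19 on the log2 scale, the steadiest step in this order. FC1 was the highest library for all 3 precursors, and Npy there was 1175 TPM against 935 in FC6, the next one down. Without FC1, FC6 and MC3 the coefficient of variation was 0.169 for Npy, 0.231 for Sst and 0.263 for Penk, against 0.519, 0.437 and 0.456 over all 20.

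Pdyn, the dynorphin precursor, was the least variable precursor of at least 1 CPM, with 202 TPM in FC5, 263 at the median and 305 in FC9 and a coefficient of variation of 0.141. Vgf, a granin-like precursor induced by neurotrophins, had 264 TPM in MC5, 402 at the median and 572 in MC7, above Pdyn in 20 of 20 libraries. Tac2, the neurokinin B precursor, had 120.3 TPM in FC5, 211 at the median and 344 in MC3, and Nts, the neurotensin precursor, had 61.9 TPM in FC6, 147 at the median and 235 in FC8. Pdyn and Tac2, Tac2 and Nts, and Nts and Tac1 each stood within their spread of each other. Tac1, the substance P precursor, had 65.0 TPM in FC9, 118 at the median and 239 in MC4 and was higher in numbers 1 to 5 by 0.77 on the log2 scale (SE 0.18, adjusted p = 0.00475, edgeR). Cartpt, the CART precursor, had 59.0 TPM in FC6, 106 at the median and 182 in MC7 and differed the other way, by -0.48 (SE 0.13, adjusted p = 0.00936, edgeR). Over the list, 10 of 46 tested precursors (21.7%) differed between the number sets, against 25.3% of all genes.

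Crh, the corticotropin-releasing hormone precursor, was at the level of Cck and Pnoc. It had 36.1 TPM in FC6, 74.8 at the median and 143 in FC8. Crh did not pass the test between the number sets (log2 -0.29, SE 0.16, adjusted p = 0.2, edgeR), and it passed without FC1, FC6 and MC3, as lower in numbers 1 to 5 (log2 -0.43, adjusted p = 0.0316, edgeR). Cck, the cholecystokinin precursor, had 27.2 TPM in FC2, 84.7 at the median and 228 in MC9, and Pnoc, the nociceptin precursor, had 27.2 TPM in MC4, 54.1 at the median and 127 in MC9. Crh was below Cck in 12 of 20 libraries, and Pnoc below Crh in 16, both within the spread of the ratio. Gal (galanin) had 20.9 TPM in FC6, 50.3 at the median and 140.3 in MC9. Oxt (oxytocin) was among the most uneven precursors, with 9.15 TPM in MC5, 39.9 at the median and 133 in FC10 and a coefficient of variation of 0.673. Avp (vasopressin) had 8.2 TPM in FC6, 19.8 at the median and 39.1 in MC9, and Adcyap1, the PACAP precursor, had 0.789 TPM in FC6, 10.5 at the median and 16.1 in FC5. Pomc, the precursor of melanocortins and endorphin, was low and the second most variable precursor (0.999 TPM in FC3, 2.97 at the median and 10.2 in FC6, coefficient of variation 0.688). Ucn, Npw and Galp had fewer than 3 counts in all 20 libraries together, with 2, 0 and 1. The count of 0 for Npw allows a level of up to 0.00504 CPM over the controls, an allowance for counting error only. For Ucn and Galp the allowance is larger. Ecrg4, a secreted precursor also made by ependymal and choroid cells, had the largest spread on the list at 0.861 and was lower in numbers 1 to 5 (log2 -1.65, SE 0.39, adjusted p = 0.00446, edgeR). In bulk tissue, fewer cells that make a peptide and less of its mRNA in each cell cannot be told apart.

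**Figure D2:**
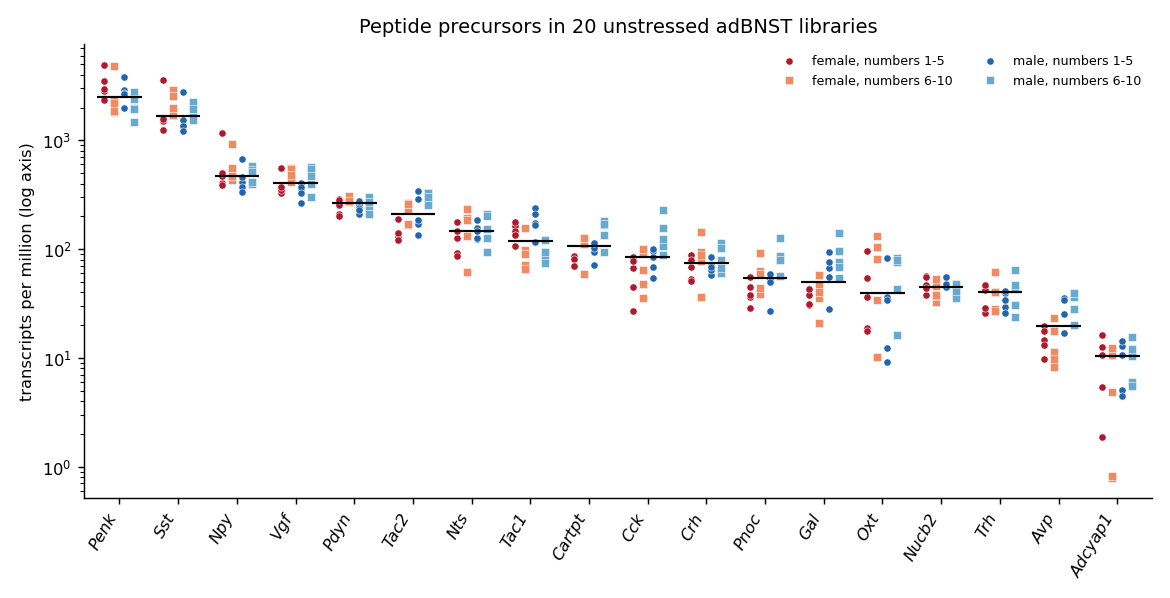
Level per length (TPM, log axis) of 18 peptide precursors in each of the 20 control libraries; colours and shapes give sex and number set, and black bars the median of the 20. Pdyn and Nucb2 lie in narrow bands, while Oxt and Adcyap1 span more than a factor of 10.

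The promoter of Sst is shown because Sst is the highest precursor with an entry in the promoter table used, and because it holds the full cyclic AMP response element, TGACGTCA, which binds CREB. The window runs from 250 bases before to 50 after the annotated start on the - strand, at chr16:23890795-23891094 (RefSeq, GRCm38.p6), and the element, in capitals, begins 48 bases before the start.
Sst: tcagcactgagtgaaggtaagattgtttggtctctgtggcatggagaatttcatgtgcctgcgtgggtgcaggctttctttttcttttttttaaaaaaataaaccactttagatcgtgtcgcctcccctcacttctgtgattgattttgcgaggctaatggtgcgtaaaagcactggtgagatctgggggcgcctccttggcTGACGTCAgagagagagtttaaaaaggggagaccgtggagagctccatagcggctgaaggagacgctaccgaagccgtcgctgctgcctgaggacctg
Of 48 precursor genes with an entry, 3 (6.25%) held these 8 letters on either strand, namely Sst, Cartpt and Ucn. Of all 27025 genes with an entry 549 held them (2.03%), and of the 11437 of at least 1 CPM 398 (3.48%). Sst and Cartpt were both well expressed, and Ucn had fewer than 3 counts. The match is a description of the letters in the window.

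The machinery that makes and packs peptides was abundant, and its spread was ordinary for genes of such a level. The median member had a coefficient of variation of 0.196, at percentile 51.2 of the genes nearest in level. All 10 genes of the list reached 1 CPM. Between the number sets, 0 of 10 differed in the edgeR test, against 25.3% of all genes, with 2 at an unadjusted p under 0.05 and 0 called by DESeq2. Besides Cpe, the granins Scg2 (623 to 1736 TPM, median 1236), Scg3 (309.5 to 563 TPM, median 502), Chgb (234 to 483 TPM, median 375) and Chga (190.0 to 438 TPM, median 289), which fill dense-core vesicles, all exceeded 100 TPM in every library. Scg3 was the steadiest of them, with a coefficient of variation of 0.0856, at percentile 2.74 of the genes nearest in level. Of the convertases that cut precursors, Pcsk2 had 65.3 TPM in MC3, 93.0 at the median and 139 in MC4 and Pcsk1 had 8.6 TPM in FC6, 25.5 at the median and 39.7 in FC8. Pcsk1n, the inhibitor of the latter, had 387 TPM in MC5, 927 at the median and 1850 in MC3 and the largest spread of the list, 0.525. Pam, which amidates finished peptides, had 89.3 ± 18.5 TPM.

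Receptors for peptides were led by that for PACAP and by genes known from glia. Of 54 on the list, 44 reached 1 CPM. Adcyap1r1, the PACAP receptor, was first with 174 TPM in FC1, 241 at the median and 328 in MC9. Ntsr2, a neurotensin receptor found mainly in astrocytes, had 112 TPM in MC5, 168 at the median and 243 in MC3, and Ednrb, the glial endothelin receptor, had 38.3 TPM in FC6, 108 at the median and 166 in MC5. Among receptors of neurons, Gpr83 had 71.2 TPM in MC9, 102 at the median and 133 in MC4, Oprl1 (the nociceptin receptor) 44.0 TPM in FC6, 76.3 at the median and 121 in MC9, and Npy2r 20.6 TPM in FC6, 59.0 at the median and 79.7 in FC8. Npy1r had 11.7 TPM in FC6, 22.7 at the median and 40.8 in MC2, and Crhr1, the receptor of corticotropin-releasing hormone, had 13.4 TPM in MC5, 21.0 at the median and 27.5 in MC3. The order from Cckbr through Npy1r, Calcr, Sstr2, Tacr1 and Crhr1 held step by step in 9 to 13 of 20 libraries, and these neighbours did not differ beyond their spread. Mc4r, the melanocortin receptor, was low but the least variable receptor, with 5.36 TPM in MC3, 9.03 at the median and 10.9 in MC5 and a coefficient of variation of 0.13. Cckar (coefficient of variation 0.746) and Hcrtr1 (0.655), receptors for cholecystokinin and orexin, were the most variable. Of 52 tested, 16 differed between the number sets (30.8%, against 25.3% of all genes), 13 of them lower in numbers 1 to 5, Adcyap1r1 among them (log2 -0.38, SE 0.08, adjusted p = 0.00218, edgeR).

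Transmitter genes were those of GABA neurons, with a small and uneven glutamate share. Gad2 and Gad1, the enzymes that make GABA, had 394 TPM in FC6, 804 at the median and 1172 in MC5, and 234 TPM in MC3, 414 at the median and 536 in MC5, respectively. Slc32a1, which loads GABA into vesicles, had 259 TPM in MC4, 352 at the median and 504 in FC10. Slc17a6, the vesicular glutamate transporter of hypothalamic and thalamic neurons, had 1.53 TPM in FC6, 20.9 at the median and 52.7 in FC5. Its libraries spread more than those of 99.2% of the genes nearest to it in level, with a coefficient of variation of 0.608, and without passing the test between the sets (log2 0.28, SE 0.41, adjusted p = 0.652, edgeR). Slc17a7, the cortical glutamate transporter, had 1.76 TPM in MC4, 4.44 at the median and 13.1 in MC9. The ratio of Slc32a1 to Slc17a6 per length was 4.97 in FC5, 20.8 at the median and 200.6 in FC6, and that to Slc17a7 was 37.5 in MC9, 79.3 at the median and 147.6 in MC4. The GABA marker was thus above both glutamate markers in all 20 libraries. Tbr1, a transcription factor of glutamate neurons, moved over a like range, with 0.863 TPM in FC6, 5.73 at the median and 20.8 in FC5, highest in FC5 as Slc17a6 was. Th, the rate-limiting enzyme of catecholamine synthesis, had 11.6 TPM in MC9, 16.9 at the median and 36.0 in FC6, and Chat, which makes acetylcholine, had 2.73 TPM in MC3, 5.89 at the median and 9.72 in MC1. Hdc, which makes histamine, was the most variable gene of this list at 0.704.

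**Figure D3:**
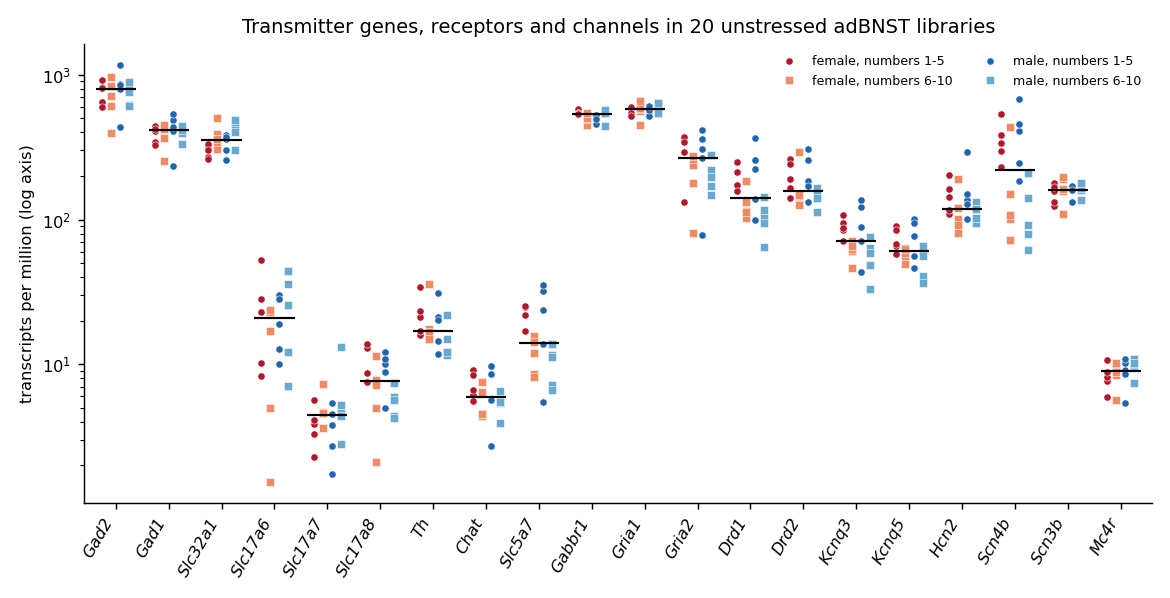
Level per length (TPM, log axis) of 20 transmitter genes, receptors and channels in the 20 control libraries; colours and shapes give sex and number set, black bars the median. The GABA genes at the left lie above the glutamate transporters in every library, and Gabbr1, Gria1, Scn3b and Mc4r form narrow bands while Slc17a6 and Scn4b are wide.

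Receptors for GABA and glutamate held both the steadiest and some uneven genes. Gabbr1, a subunit of the metabotropic GABA receptor, led the GABA list with 442 TPM in MC7, 534 at the median and 579.8 in FC1. Its coefficient of variation, taken on CPM, was 0.0987, or 0.0549 without FC1. In CPM FC1 stood apart, at 1214 against 981 in the next female, while in TPM it was close to MC10 at 573.6. Gria1, an AMPA receptor subunit, led the glutamate list with 451 TPM in FC6, 578 at the median and 656 in FC10, and its coefficient of variation of 0.0637 was lower than that of any of those genes around it in level. Of the subunits of the GABA-gated chloride channel, Gabrb2 had 70.8 TPM in MC7, 183 at the median and 379 in MC5, and Gabra3 61.4 TPM in FC6, 146 at the median and 211 in FC10. Of 22 genes of this list tested, 6 (27.3%) differed between the sets, all higher in numbers 1 to 5, a share near the 25.3% of all genes. Glrb, the glycine receptor anchor subunit, had 76.8 TPM in MC3, 152 at the median and 301 in MC5. Glra1 (0.821) and Gabrr2 (0.553) had the largest coefficients of variation and low levels. Among glutamate receptors, Gria2 had 78.4 TPM in MC3, 265 at the median and 417 in MC5, Grik5 111 TPM in MC5, 202 at the median and 295 in MC3, Grm5 72.1 TPM in MC3, 157 at the median and 294 in MC4, and Grin1 88.1 TPM in MC5, 141 at the median and 181 in MC6. Of 25 glutamate receptor genes tested, 9 (36.0%, against 25.3% of all genes) differed between the sets, 6 higher and 3 lower in numbers 1 to 5. Grm6, the receptor of retinal bipolar cells, had fewer than 3 counts in all. Grm4 (0.47) and Grin3b (0.457) were the most variable, and fell to 0.185 and 0.262 without FC1, FC6 and MC3.

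High among receptors for monoamines, acetylcholine and adenosine were genes known for their high level in striatal projection neurons. The dopamine receptors Drd2 and Drd1 had 113 TPM in MC9, 156 at the median and 308 in MC3, and 64.4 TPM in MC9, 141 at the median and 365 in MC4, respectively. The adenosine receptor Adora2a had 77.4 TPM in MC9, 134 at the median and 303 in FC6. Chrm4, a muscarinic receptor, had 94.5 TPM in MC9, 165 at the median and 285 in FC6. MC9 was the lowest library for each of these 4 genes, and MC4, FC6 or MC3 the highest. Their coefficients of variation lay between 0.388 (Chrm4) and 0.486 (Adora2a), and without FC1, FC6 and MC3 were 0.249 for Chrm4 and 0.254 for Drd2. Drd1 was higher in numbers 1 to 5, by 0.81 on the log2 scale (SE 0.21, adjusted p = 0.00782, edgeR). Adrb1, the beta-1 adrenergic receptor, was the steadiest of the list at 0.132, with 16.3 TPM at the median and 21.3 in MC4. Chrm5 (0.641) and the serotonin-gated channel Htr3a (0.589) were the most variable.

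The list of 12 striatal markers, which holds Drd1, Drd2 and Adora2a as well, was uneven too. Ppp1r1b (DARPP-32), the dopamine-regulated phosphatase inhibitor, had 442 TPM in MC9, 764 at the median and 2177 in FC6, and Rasd2 144 TPM in MC7, 241 at the median and 585 in FC6. Rgs9, a brake on dopamine receptor signalling, had 122 TPM in MC9, 257 at the median and 504 in MC4. The summed level of the list was 1269 TPM in MC9, 2520 at the median and 4881 in MC4. All 12 were detected in every library, 11 of 12 lay above the 90th percentile of spread at their level, and 8 of 12 (66.7%) were higher in numbers 1 to 5, against 13.2% of all genes. Ido1 (0.684) had the largest coefficient of variation and Isl1 (0.245) the smallest. The part of adjoining striatum in the dissections was not tested, and some of these genes are also known in neurons of the bed nucleus.

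Markers of the oval and anterolateral bed nucleus were present in every library, and the part of the bed nucleus in each dissection was not tested. Prkcd, protein kinase C delta, was the most variable of the 12, with 6.11 TPM in FC1, 33.7 at the median and 86.0 in MC7 and a coefficient of variation of 0.536. It was lower in numbers 1 to 5 by a log2 difference of -1.07 (SE 0.24, adjusted p = 0.00334, edgeR), and is also a marker of thalamic neurons. The transcription factors Meis2 and Six3 of the developing ganglionic eminences had 84.7 TPM in MC9, 150.4 at the median and 244 in FC1, and 51.3 TPM in MC9, 66.0 at the median and 124 in FC1, respectively. Tac2 (-0.46, SE 0.17, adjusted p = 0.046, edgeR) and Cartpt were the other 2 of 3 called among the 12, all lower in numbers 1 to 5, against 12.1% of all genes, though Tac2 no longer passed when any 1 of 15 libraries was left out (adjusted p = 0.0534 to 0.0938, edgeR). Of markers of the principal nucleus and preoptic area, which lie behind and below, Nkx2-1 had 23.4 TPM in FC6, 30.5 at the median and 42.6 in FC1, Lhx6 41.0 TPM in MC4, 54.7 at the median and 93.3 in MC9, and Moxd1 19.6 TPM in FC6, 36.7 at the median and 88.6 in MC9. Of these 9 markers, 0 differed between the number sets in the edgeR test, against 25.3% of all genes, with 1 at an unadjusted p under 0.05 and 1 called by DESeq2. Zic1, a septal marker, had 7.92 TPM in MC3, 23.7 at the median and 48.1 in MC10, and the cholinergic marker Slc5a7, the choline transporter, had 5.48 TPM in MC3, 14.1 at the median and 35.5 in MC5. The cortical and hippocampal marker list summed to 20.5 to 61.7 TPM, the septal list to 58.2 to 212 and the striatal list to 1269 to 4881. The oval and anterolateral list summed to 4369 to 10530 TPM, with Penk, Sst and Npy as its highest members. Among the 38 regional transcription factors, Lhx9 (1.01) and Tbr1 (0.829) were the most variable and Tshz1 (0.138) the least.

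Ion channel genes ranged from steady to uneven. Their 4 lists had median coefficients of variation of 0.227 to 0.274, against 0.22 over all genes, and the median member stood between percentile 50.8 and percentile 79.8 of the genes nearest in level. Of the KCNQ genes whose channels carry the M-current, a potassium current that restrains repeated firing, Kcnq3 had 33.0 TPM in MC7, 70.8 at the median and 135 in MC5 and Kcnq5 36.7 TPM in MC9, 60.8 at the median and 101 in MC4. Both were higher in numbers 1 to 5, Kcnq3 by 0.64 (SE 0.16, adjusted p = 0.00594) and Kcnq5 by 0.45 (SE 0.14, adjusted p = 0.0183, edgeR). The pacemaker channel gene Hcn2 had 80.5 TPM in FC8, 119 at the median and 295 in MC3 and the largest spread of that list, 0.473, or 0.194 without FC1, FC6 and MC3, while the T-type calcium channel gene Cacna1i had 28.0 TPM in MC7, 37.0 at the median and 47.9 in FC10 and a spread of 0.109. Kcnip2, a partner of A-type potassium channels, led the other potassium channel genes with 217 TPM in MC5, 258 at the median and 337 in FC6. The glial inward rectifier Kcnj10 had 102 TPM in MC7, 199.6 at the median and 275 in FC5, and Kcnj4, an inward rectifier of striatal neurons, 102 TPM in FC8, 157 at the median and 352 in FC6. Kcnc1, which allows fast firing, was the steadiest of these, at 0.11 with 49.2 TPM in FC6, 79.6 at the median and 98.6 in FC10. Of 54 in this group, 14 (25.9%) differed between the sets, 11 of them higher in numbers 1 to 5, a share like the 25.3% of all genes.

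Sodium channel beta subunits showed both ends of the range. Scn3b had 109 TPM in FC6, 161 at the median and 198 in FC10 and a coefficient of variation of 0.0899, whereas Scn4b had 61.4 TPM in MC9, 221 at the median and 682 in MC4 and 0.698. Scn4b was higher in numbers 1 to 5 by 1.36 (SE 0.35, adjusted p = 0.00779, edgeR), and MC4 and MC9 bounded its range as they did that of Drd1. Slc12a5, the potassium-chloride transporter that keeps GABA inhibitory, had 217 TPM in MC3, 403 at the median and 522 in MC9. Ano3, a member of the anoctamin family with a high level in striatum, had 40.8 TPM in MC9, 108 at the median and 332 in MC4 and the largest spread among the TRP, chloride and acid-sensing channel genes, 0.547, followed by Trpv4 at 0.421. Clcn4, a chloride-proton exchanger, was the steadiest of them at 0.0864.

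Steroid receptors and genes of recent activity differed in evenness, with median coefficients of variation of 0.248 and 0.367. Thra, a thyroid hormone receptor, led the hormone list with 474 TPM in MC5, 732 at the median and 899.8 in FC9. Nr3c1, the glucocorticoid receptor, had 38.1 TPM in FC6, 73.1 at the median and 98.3 in MC5 and a coefficient of variation of 0.192, and Nr3c2, the mineralocorticoid receptor, had 25.1 TPM in FC6, 39.7 at the median and 53.0 in MC5. Esr1, estrogen receptor alpha, had 0.654 TPM in FC6, 5 at the median and 14.3 in FC10. Esr2 had the largest spread of the list, 0.69, and was lowest in FC6 at 0.208 TPM. Of the 19 genes of the hormone list, 7 lay above the 90th percentile of spread at their level and 1 below the 10th. Between the number sets 3 of the 19 (15.8%) differed, against 25.3% of all genes. Of the 26 immediate early genes, which neurons switch on within minutes of activity, 14 lay above the 90th percentile of spread at their level and 0 below the 10th. Jund led with 211 TPM in MC5, 338 at the median and 585 in FC6, and Egr1 had 102 TPM in MC9, 176 at the median and 421 in MC4. Fos had 12.2 TPM in MC9, 34.9 at the median and 70.8 in FC3, and Arc, a synaptic activity gene, 30.9 TPM in FC10, 93.8 at the median and 234 in FC6. Arc (0.636) and Egr2 (0.654) were the most variable and Jun (0.173, or 0.102 without FC1, FC6 and MC3) the least. Neither Arc nor Fos passed the test between the sets (log2 0.09 with SE 0.36 and adjusted p = 0.876 for Arc, and 0.12 with SE 0.30 and adjusted p = 0.809 for Fos, edgeR), and 4 of 26 genes of this list (15.4%) differed, against 25.3% of all genes.

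Neurons and astrocytes were the most even cell lists. General neuronal genes summed to 5552 TPM in MC7 and 7503 in FC1, with Camk2a at 636 TPM in MC7, 988 at the median and 1464 in FC1 and Snap25, a vesicle fusion protein, at 572 TPM in MC7, 933 at the median and 1448 in FC1. Nefl, a neurofilament, was the steadiest of them at 0.132. Astrocyte genes summed to 2781 TPM in MC7 and 4080 in FC5. Among them the glutamate transporter Slc1a2 had 641 TPM in MC3, 1185 at the median and 1510 in MC4, Aldoc 696 TPM in MC5, 883 at the median and 1145 in FC1, and the filament gene Gfap 54.2 TPM in MC4, 96.5 at the median and 151 in MC3. Sox9, the astrocyte transcription factor, had a coefficient of variation of 0.0656, with 32.8 TPM in FC6, 43.5 at the median and 54.4 in MC10, and no gene of those around it in level spread less.

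Myelin genes were high and uneven. The 13 markers of myelinating oligodendrocytes summed to 4370 TPM in MC7, 10760 at the median and 16050 in MC3. Mbp, which compacts the layers of myelin, had 999 TPM in MC7, 2234 at the median and 5077 in FC6. Mobp had 386 TPM in MC9, 1271 at the median and 2525 in FC1 and Mal 355 TPM in FC10, 936 at the median and 1492 in MC3. The median coefficient of variation was 0.463 over the 13, 0.247 within numbers 1 to 5 and 0.59 within numbers 6 to 10, and Gjb1, a myelin gap junction protein, was the most variable at 0.685, or 0.391 without FC1, FC6 and MC3. Of 13, 7 (53.8%) were higher in numbers 1 to 5, against 13.2% of all genes, Mal by 0.78 (SE 0.25, adjusted p = 0.0235, edgeR). Mbp did not pass (log2 0.56, SE 0.33, adjusted p = 0.212, edgeR). It passed without FC6 (log2 0.92, adjusted p = 0.011, edgeR), without FC1, FC6 and MC3 (0.61, adjusted p = 0.0338, edgeR) and with limma's quality weights (0.78, adjusted p = 0.00166). FC6 and FC7 and MC6 were above the mean of the 20 on this list's score, and the other 7 libraries of numbers 6 to 10 below it. Precursor cells had 574 to 1067 TPM in sum, led by Olig1 (214 TPM in MC10, 279 at the median and 504 in FC6).

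Microglial genes varied from library to library. The complement genes C1qb (91.8 TPM in FC3, 138 at the median and 294 in MC3) and C1qa (83.2 TPM in MC4, 120.3 at the median and 298 in MC3) were high among them. P2ry12, a receptor of resting microglia, was the most variable at 0.596, with 12.8 TPM in FC6, 38.2 at the median and 138 in MC5. Of 12 markers, 0 differed between the sets in the edgeR test, against 25.3% of all genes, with 2 at an unadjusted p under 0.05 and 2 called by DESeq2, and 8 of 12 lay above the 90th percentile of spread at their level. The endothelial genes Slc2a1 (77.6 TPM in MC2, 127 at the median and 226 in FC7) and Cldn5 (54.5 TPM in FC8, 86.7 at the median and 132 in FC6) led a list whose median coefficient of variation was 0.253. Hemoglobin genes Hba-a1, Hba-a2, Hbb-bs and Hbb-bt were listed at 0 in all 20 libraries and are not read as a level here, while Alas2, the heme enzyme of red cells, had 1.03 CPM in FC6, 1.84 at the median and 3.07 in MC6. Dcn, a matrix gene of fibroblasts, had 0.33 TPM in FC6, 5.08 at the median and 11.3 in FC7, and FC7 was the highest library for the list.

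**Figure D4:**
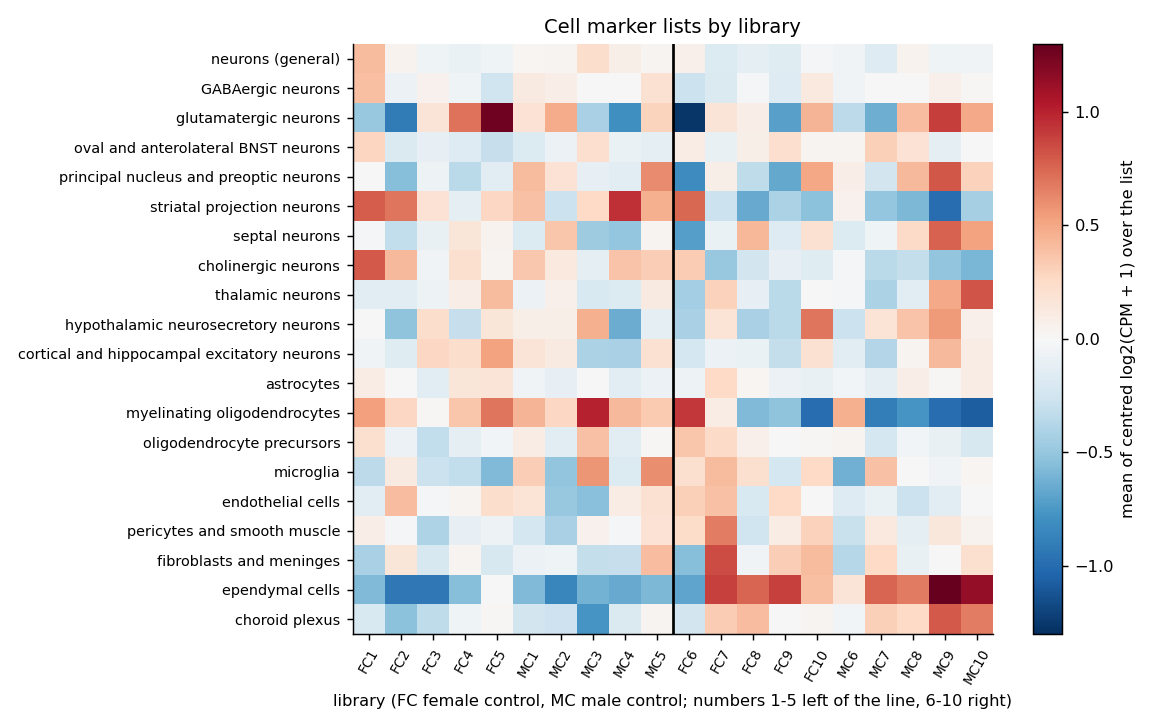
Mean of centred log2(CPM + 1) over the members of each cell marker list (rows) in each control library (columns; numbers 1 to 5 left of the line, 6 to 10 right). Ependymal and myelin lists differ most across the line, from -0.93 in FC2 to 1.301 in MC9 for the ependymal list, while the astrocyte list stays between -0.139 and 0.261.

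Ependymal genes, made by the ciliated cells that line the ventricle, varied most among the cell lists. Their summed level was 102 TPM in FC3, 200.9 at the median and 677 in MC9. Foxj1, the master transcription factor of motile cilia, had 16.9 TPM in MC5, 37.4 at the median and 96.1 in FC9. Tmem212 had 5.52 TPM in FC3, 24.9 at the median and 129 in MC9, and Ccdc153, a cilium protein, 9.31 TPM in FC3, 24.99 at the median and 109 in MC9. Of 12 markers, 11 (91.7%) were lower in numbers 1 to 5, against 12.1% of all genes, with Foxj1 at -1.26 (SE 0.19, adjusted p = 0.00017), Ccdc153 at -1.82 (SE 0.25, adjusted p = 7.47e-05) and Tmem212 at -2.26 (SE 0.34, adjusted p = 0.000174, edgeR). The exception was Meig1, at -0.47 (SE 0.18, adjusted p = 0.0513), which passed without FC1 (adjusted p = 0.0295), FC6 (0.02), MC3 (0.00961) or MC6 (0.0339, edgeR). Meig1 also passed without FC1, FC6 and MC3 together (adjusted p = 0.000541, edgeR), with total counts (0.0318, edgeR), with DESeq2 (0.0259) and with limma's quality weights (2.02e-05). Within numbers 1 to 5 the list's median coefficient of variation was 0.367 and within 6 to 10 0.368, against 0.66 over all 20. Ttr, the main product of choroid plexus, was listed at 0 in FC2 and reached 108 TPM in MC9, with a coefficient of variation of 1.28. The choroid markers Folr1 (0 to 5.44 TPM) and Kcnj13 (0 to 3.27 TPM) were at 0 in 1 and 2 libraries.

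Promoters of 3 ciliary genes are shown because these genes were all lower in numbers 1 to 5 and each holds GTTGCC, a core of the X-box bound by RFX factors, which switch on genes of cilia. Windows run from 250 bases before to 50 after the start, from RefSeq on GRCm38.p6, each written in the direction of its gene, with GTTGCC or its complement GGCAAC in capitals. They lie at chr8:116504765-116505064, chr9:44240427-44240726 and chr8:110266727-110267026, all on the + strand.
Dynlrb2: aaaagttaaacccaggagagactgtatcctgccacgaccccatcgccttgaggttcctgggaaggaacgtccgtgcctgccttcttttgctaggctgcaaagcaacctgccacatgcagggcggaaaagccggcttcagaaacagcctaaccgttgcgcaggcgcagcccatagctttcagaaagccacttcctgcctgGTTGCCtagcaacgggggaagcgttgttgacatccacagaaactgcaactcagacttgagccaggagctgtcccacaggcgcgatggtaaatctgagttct
Ccdc153: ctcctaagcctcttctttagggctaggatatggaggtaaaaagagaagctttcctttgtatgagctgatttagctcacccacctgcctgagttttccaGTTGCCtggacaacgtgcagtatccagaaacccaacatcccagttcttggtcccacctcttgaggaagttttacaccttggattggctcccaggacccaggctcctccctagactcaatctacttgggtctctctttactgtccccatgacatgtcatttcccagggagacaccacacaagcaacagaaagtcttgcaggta
Hydin: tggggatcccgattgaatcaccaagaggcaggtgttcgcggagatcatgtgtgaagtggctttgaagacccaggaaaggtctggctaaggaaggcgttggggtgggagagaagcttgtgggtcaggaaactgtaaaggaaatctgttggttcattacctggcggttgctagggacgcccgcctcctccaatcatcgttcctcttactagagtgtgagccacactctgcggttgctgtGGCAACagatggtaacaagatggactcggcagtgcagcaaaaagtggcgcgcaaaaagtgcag
The letters begin 51, 152 and 13 bases before the start. Of 10 ependymal genes with an entry, 5 (Ccdc153, Dynlrb2, Hydin, Tekt1 and Tekt4) held GTTGCC on either strand, against 3821 of 27025 genes (14.1%). Some other short lists had like shares, with 3 of 5 blood cell, 3 of 7 choroid plexus and 3 of 7 thalamic genes. The microglial and endothelial lists had 0 of 8 each. With so few genes per list, the share is not shown to be particular to ciliary genes. Dynlrb2, a dynein light chain, ran from 8.05 TPM in FC3, 29.3 at the median and 106 in MC9, and Hydin, a protein of the central pair of cilia, from 0.319 TPM in MC3, 1.69 at the median and 7.77 in MC10. A match says nothing of binding in this tissue.

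The genes of largest spread were mostly low in level. Shox2, a transcription factor of thalamic and other diencephalic neurons, led with 0 CPM in FC6, 0.229 at the median and 11.6 in MC10 and a coefficient of variation of 2.05. Ebf3 and Ebf2, factors of early neurons, had 0.196 CPM in FC6, 4.64 at the median and 37.4 in FC5, and 0 CPM in FC6, 4.33 at the median and 28.7 in FC5. Lhx1, a factor of hypothalamic and hindbrain neurons, had 0 CPM in FC1, 0.852 at the median and 5.36 in FC5. All 3 were highest in FC5, as Slc17a6 and Tbr1 were. Corin (1.19) was also highest there. Plin4, a lipid droplet protein, had 2.3 CPM in MC5, 6.48 at the median and 58.9 in FC7, and Hspa1b, an inducible heat shock protein, 1.18 CPM in FC2, 1.97 at the median and 19.3 in MC4. Trpm6, a magnesium channel of epithelia, fell in spread from 1.07 to 0.689 without MC10, where it was highest at 6.26 CPM. Capn11 (1.65) and Spata18 (1.1) were low and uneven too. The gene model Mir2137 had a coefficient of variation of 1.98, or 1.32 without FC1, FC6 and MC3, with FC6 highest. Pvalb, parvalbumin of fast-spiking interneurons, had 2.78 TPM in FC3, 13.4 at the median and 70.2 in MC1 and a coefficient of variation of 1.03.

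For 3 genes, nearly all of the variance lay between the number sets. Sumo2, a small protein modifier, had 0.294 CPM in FC6, 4.63 at the median and 19.7 in FC1, and 97.2% of its log2 variance lay between the sets. Rps29, a ribosomal protein, had 257 TPM in MC10, 883 at the median and 2119 in FC1, and 91.9% of its variance lay there, with a log2 difference of 2.41 (SE 0.18, adjusted p = 2.52e-08, edgeR). Rpl36al, another ribosomal protein gene, had 90.6% there. Rpl41 (1.53, SE 0.25, adjusted p = 0.000278) differed the same way. Such genes have near-identical copies in the genome, so their counts are uncertain. Over all genes of at least 1 CPM, the median share of variance between the sets was 13.95% and between the sexes 1.72%, and 1294 genes had over 50% between sets.

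The 10 steadiest genes at 10 CPM or more had coefficients of variation of 0.0391 to 0.0522. Cnot9 and Cnot11, subunits of the CCR4-NOT complex that shortens mRNA tails, had 28.9 CPM in FC9, 33.9 at the median and 36.4 in FC6, and 30.3 CPM in FC7, 34.4 at the median and 37.2 in FC6. Cnot9 had a coefficient of variation of 0.0391, and 0.0215 without FC9. Bace1, the beta-secretase, had 103 CPM in MC7, 119.8 at the median and 128 in MC2, Snx1, a retromer sorting nexin, 76.9 CPM in MC10, 82.9 at the median and 90.2 in MC4, and Hif1an, the oxygen sensor that limits HIF activity, 52.3 CPM in MC5, 60.8 at the median and 64.9 in MC2. Dcaf12 (0.0431), Nom1 (0.0475, or 0.0284 without MC7), Tpd52l2 (0.0484), Rab23 (0.0507) and Ifnar1 (0.0522) completed the 10. Some genes often used as references were less even than these 10, with Gapdh at 0.296, Actb at 0.277 (0.134 without FC1, FC6 and MC3) and Hprt at 0.229. Gapdh was lower in numbers 1 to 5 (log2 -0.56, SE 0.14, adjusted p = 0.00686, edgeR). Gusb, at 0.0706, was the least variable of the 18 upkeep genes, whose median of 0.177 was below the 0.22 of all genes. In the 18 stressed libraries the 10 steadiest genes had coefficients of variation of 0.0345 (Ifnar1) to 0.118 (Bace1), all below the median of 0.199 there.

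The order of genes by spread was also taken in other sets of libraries. Across 14436 genes, the coefficient of variation in the controls and that in the 18 stressed libraries had a Spearman correlation of 0.839, given as a description, since genes are not independent replicates. The stressed libraries carry numbers 1 to 5 and 6 to 9 as well, so what differs between the number sets can enter both values. Spread also goes with level, and the levels in the controls and the stressed libraries had a Spearman correlation of 0.999. For the coefficient of variation it was 0.676 between female and male controls, and 0.616 between the number sets. By list, the median coefficient of variation ran from 0.177 for general upkeep genes, 0.194 for general neuronal genes and 0.196 for peptide processing to 0.66 for ependymal genes, with 0.391 for peptide precursors, 0.315 for their receptors and 0.245 for potassium channels other than KCNQ. In the stressed libraries the same lists had 0.18, 0.185, 0.156, 0.503, 0.349, 0.293 and 0.227. Without FC1, FC6 and MC3 the median over all genes was 0.179, and that of the lists was 0.309 for precursors, 0.433 for striatal markers (0.473 with them), 0.405 for myelin (0.463) and 0.638 for ependymal genes. Ribosomal protein genes moved most, from 0.344 to 0.167.

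**Figure D5:**
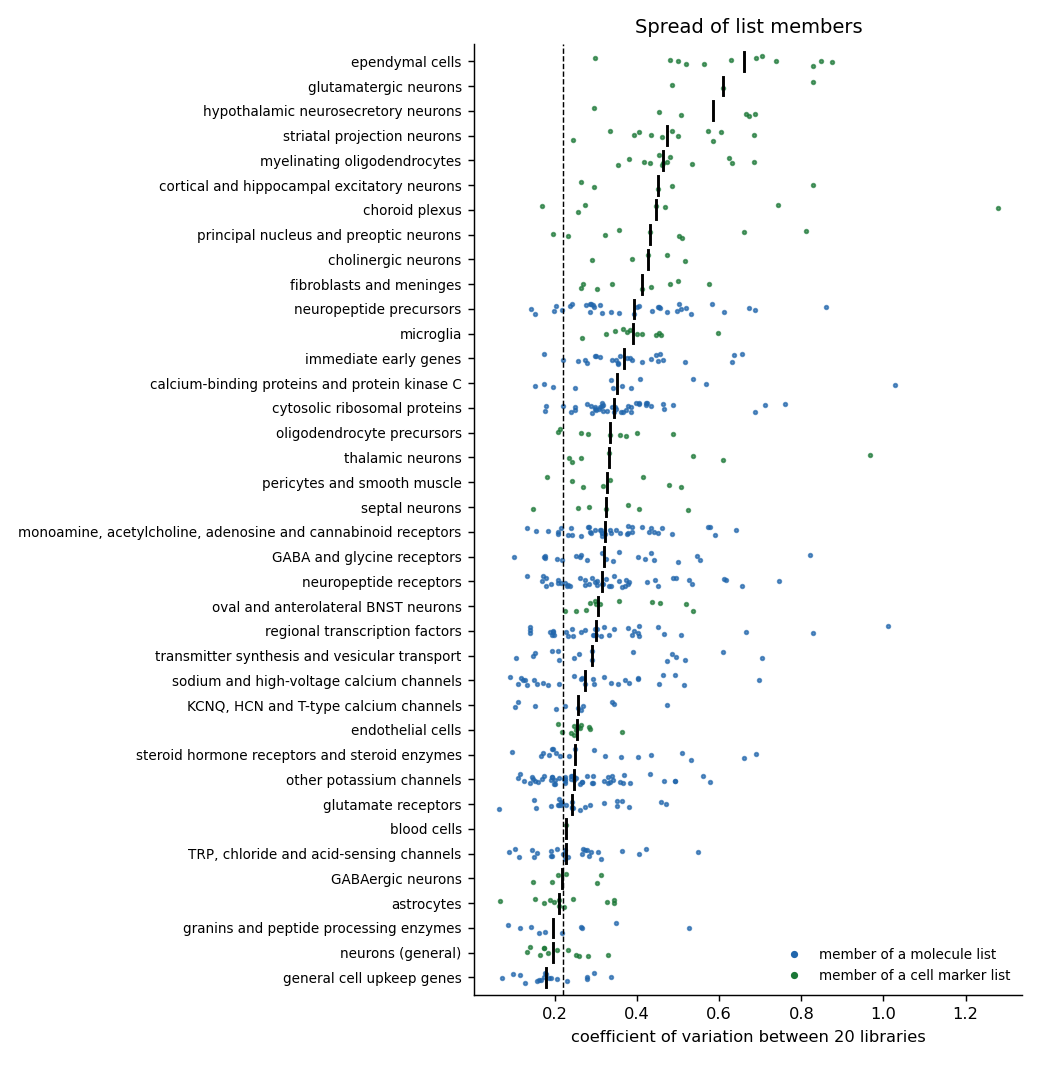
Coefficient of variation over the 20 control libraries (horizontal axis) for each member of at least 1 CPM of the 38 lists (rows, ordered by the median, black ticks); the dashed line is the median of all genes, 0.22. The medians of the upkeep, general neuronal and peptide processing lists lie below the line, and the ependymal list at 0.66 is farthest to the right.

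A few hormone-related genes had much of their variance between the sexes. Over all 14503 genes of at least 1 CPM the median share was 1.72%. Only 18 of them had over 50%, with sex-linked genes not left out. In the list of steroid hormone receptors and steroid enzymes the median was 2.24%. For Avp, 61.9% of log2 variance lay between the sexes, with 14.5 ± 4.94 TPM in 10 females and 30.8 ± 7.77 in 10 males. For Gal it was 47.6% (38.8 ± 10.1 against 75.5 ± 30.1), and for Greb1, an estrogen-responsive gene, 57.9% (3.6 ± 3.08 against 12.6 ± 6.49). Cyp19a1, the aromatase that makes estradiol, had 0.722 TPM in FC9, 2.49 at the median and 8.5 in MC9, and 45.5% of its variance lay between the sexes (1.8 ± 1.32 against 4.41 ± 2.08). These shares are descriptions, and no contrast of the sexes was tested.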

How the data were processed

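Poly-A RNA of microdissected adBNST was sequenced in 38 libraries, of which the 20 controls were described and the 18 stressed ones served only to take the same spread again. The authors deposited whole-number read counts per gene for 25230 genes. STAR, featureCounts, DESeq2 and the mouse build mm10 are named in the submitters' processing notes, without versions, and the strand setting of the counting is not given in the sources used here, so overlapping and antisense genes, and genes with near-identical copies, are uncertain. The 38 count columns were matched to samples by their names, and 0 columns were left over.

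From the deposited counts, CPM was computed on TMM effective library sizes (edgeR 4.0.16, R 4.3.3), and TPM as CPM per summed exon length (GENCODE M21) scaled to the same total in every library, for 24407 genes. Spread is the moment coefficient of variation of CPM less the mean counting part. A count of 0 over the controls allows 3 counts, or 0.00504 CPM, for counting error only. The main test was edgeR's quasi-likelihood test of the number sets (1 to 5 against 6 to 10) with sex, after filtering low counts. It used Benjamini-Hochberg adjustment over 16310 genes and a threshold of 0.05, and its procedure was checked on simulated data. The interaction of sex and number set was tested in the same way, and single libraries were checked against Dixon's critical value. P-values measure the spread between these libraries, which the labels do not say are separate animals. DESeq2 1.42.0 and limma 3.58.1 were alternatives, with other scalings, filters and sets of libraries.

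The members and gene lists were chosen with earlier results of these data known. Genes are named if among the 12 highest per length, the 15 of largest or 10 of smallest spread, in each list the 5 highest, 2 most and 1 least variable, in a panel of genes of interest, or listed with fewer than 3 counts in all. Sex-linked genes and unnamed gene models were left out, and 108 of the 270 genes this rule gives are not reported here. Another 32 genes were named after their values were seen: Cacna1i, Calcr, Cck, Cckbr, Cdkn1a, Chga, Chgb, Folr1, Hif3a, Hprt, Hydin, Kcnj13, Map3k6, Meg3, Npy1r, Npy2r, Nts, Nucb2, Pam, Pcsk2, Pdk4, Pnoc, Rpl36al, Sgk1, Snhg11, Sstr2, Tac1, Tacr1, Tekt1, Tekt4, Xdh and Zbtb16.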

Additional observations from a re-analysis of the deposited data

Results flagged for a closer look

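Each value here is the CPM of a gene named in the text in a library that stood apart from the other 9 of its sex, by a gap to its nearest neighbour above Dixon's 95% critical value. Of 388 groups of 10 checked over 194 genes, 54 met this, of which MC3 gave 15, FC1 10 and FC6 9. For normally distributed values chance gives about 1 in 20. Many of these genes were named for their spread in these libraries, and the same libraries recur. The 54 can therefore not be set against that rate.

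FC1 was the highest of the females for Calm2 at 1701 (next 1268), Capn11 at 3.53 (next 0.428), Gabbr1 at 1214 (next 981), Meis2 at 794 (next 535), Nkx2-1 at 32.7 (next 22.6), Pvalb at 13.2 (next 5.77), Rpl41 at 347 (next 162), Six3 at 182 (next 99.2), Snap25 at 2652 (next 1727) and Sumo2 at 19.7 (next 10.5) CPM. FC10 was the highest of the females for Cyp19a1 at 4.86 (next 2.48), Glra1 at 6.45 (next 2.43) and Moxd1 at 45.6 (next 28.7) CPM. FC5 was the highest of the females for Lhx9 at 5.54 (next 1.33) and Slc17a6 at 60.5 (next 31.5) CPM. FC6 was the highest of the females for Cldn5 at 52.1 (next 31.1), Gjb1 at 50.4 (next 23.1), Grin3b at 4.7 (next 2.64), Kcnj4 at 211 (next 124), Mir2137 at 78.2 (next 28.4), Mir6236 at 2417 (next 812), Pomc at 3.77 (next 1.79) and Rn45s at 53250 (next 23790) CPM. FC6 was the lowest of the females for Npy1r at 11.2 (next 15.6) CPM. FC7 was the highest of the females for Plin4 at 58.9 (next 31.3) CPM. FC8 was the highest of the females for Crh at 39.4 (next 26.7) CPM. MC2 was the highest of the males for Corin at 3.07 (next 1.63) and Ebf2 at 19 (next 8.27) CPM. MC3 was the highest of the males for Actb at 1818 (next 1316), Aldoc at 834 (next 660.3), C1qa at 79.5 (next 46.6), C1qb at 82.2 (next 47.7), Fth1 at 5241 (next 2640), Gfap at 164 (next 110.2), Gjb1 at 50.7 (next 22.1), Hcn2 at 242 (next 99.9), Mobp at 4308 (next 2456), Olig1 at 254 (next 151), Rpl41 at 322 (next 144), Rplp1 at 751 (next 478), Selenow at 1070 (next 486) and Th at 18.7 (next 11.4) CPM. MC3 was the lowest of the males for Sparcl1 at 1017 (next 1765) CPM. MC4 was the highest of the males for Egr1 at 424 (next 259), Egr2 at 23.4 (next 10.7), Hspa1b at 19.3 (next 8.39) and Pdk4 at 30.1 (next 19.3) CPM. MC5 was the highest of the males for Ednrb at 154 (next 114) and P2ry12 at 76.3 (next 38.4) CPM. MC9 was the highest of the males for Cckar at 15.4 (next 8.59), Htr3a at 10.8 (next 6.38), Lhx6 at 95.4 (next 65.7), Slc17a7 at 15 (next 6.29) and Ttr at 27.4 (next 11.3) CPM.

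The effect of the number set was also compared between the sexes, and 0 genes differed in edgeR's interaction test at an adjusted p under 0.05, with 225 at an unadjusted p under 0.05.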

How the results depend on the processing

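The number of genes differing between the number sets (4133 by edgeR) was 428 in females alone and 683 in males alone, where 10 libraries remain, 7223 without FC1, FC6 and MC3, and 7774 with limma's quality weights. It ran from 3140 (without MC9) to 5684 (without MC3) when 1 library was left out. Scaling by total counts gave 4055, with 1678 higher and 2377 lower in numbers 1 to 5 in place of 2159 and 1974, while DESeq2's size factors (4107), no filter (3822) and DESeq2 (4838) stayed within 1.5 times. Of the 23 genes whose set test is given, Arc, Crh, Fos, Mbp, Meig1 and Slc17a6 did not pass in the main test. Of the others, 16 no longer passed in females alone, which is all but Rps29, and 8 no longer passed in males alone. Directions turned only for genes that did not pass: Arc (log2 -0.18 in females alone, and -0.14 without FC1 to 0.41 without FC6), Fos (-0.036 in females alone, and -0.054 without FC3 to 0.26 without MC6) and Slc17a6 (-0.28 in males alone and -0.022 with quality weights). Arc also turned without FC10, MC3 or MC9.

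Genes of at least 1 CPM numbered 14392 to 14554 over the alternatives, and 40 to 50 of the 50 highest per length stayed. The 50 genes of largest spread were less stable. Of them, 29 stayed in females alone, 19 in numbers 1 to 5, 18 in numbers 6 to 10, 14 in the stressed libraries, 21 by interquartile range over median, 14 by residual SD of log2 CPM after sex and number set, 17 at a minimum of 5 CPM and 7 with no minimum mean but 3 counts in the median library. Leaving out 1 library kept 41 to 48. The cause of these changes was not tested. Among 192 genes of the text, the coefficient of variation moved by over 1.5 times for 32 without FC1, FC6 and MC3, each to a smaller value, for 10 with 1 library left out and for 2 with total counts. It moved as far for 39 of 191 within numbers 1 to 5, 34 within numbers 6 to 10, 22 in males alone and 15 in females alone, each to a smaller value. No paired analysis was possible because the test compares sets of numbers, so no number occurs in both sets. Depth limits low genes, since 1 count in MC3 is 0.113 CPM.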

Other observations

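Some further uneven genes were picked after their values were seen, most of them highest in FC7. Zbtb16, a transcription factor, had 10.2 CPM in FC6, 27.8 at the median and 115 in FC7 (coefficient of variation 0.77). Sgk1, a kinase that acts on ion transport, had 28.8 CPM in MC9, 90.2 at the median and 225 in FC1 (0.55). Hif3a, a member of the hypoxia factor family, had 2.49 CPM in MC3, 13.1 at the median and 39.4 in FC7 (0.676), and Plin4, the lipid droplet protein, 2.3 CPM in MC5, 6.48 at the median and 58.9 in FC7 (1.23). FC7 was the highest library for Zbtb16, Hif3a and Plin4, and also for Xdh, xanthine dehydrogenase (20.6 CPM against a median of 5.44), Map3k6 (8.88 against 3.71), Pdk4, a brake on glucose oxidation (31.4 against 17.9), and Cdkn1a, a cell cycle inhibitor (28.1 against 11.3). These values are a description with no test.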
